A study of Mus musculus with 5 samples.

Results

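Sct-high enterochromaffin (EC) cells are cells of the mouse small intestine that carry Tph1, the gene for the enzyme that starts serotonin synthesis, together with very high levels of Sct, the gene for the hormone secretin. They numbered 222 of the 9451 cells analyzed, which is 2.35% (95% interval 2.05 to 2.67%, exact Clopper-Pearson), and 13.8% (12.1 to 15.5%) of the 1614 cells that passed the same gate at any level of Sct. Members were chosen by levels in the cell itself, in unique molecular identifiers (UMIs, each standing for 1 captured RNA molecule) per 10000 UMIs of the cell. A member had Sct of at least 1500, Tph1 of at least 10, Tac1 under 30, Cck under 200, Gip under 500 and a sum of the goblet genes Zg16, Fcgbp, Clca1 and Spink4 under 500. The other 1392 cells of the gate had Sct under 1500 and are called other EC cells here. The share of members in the gate depends on the limit set on the UMIs of a barcode, as given near the end.

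All cells came from 1 droplet library of tdTomato+ cells, sorted from the epithelium of the small intestine of 4 Neurog3-Cre; R26-LSL-tdTomato mice (C57Bl/6J, aged 6 weeks, 2 males and 2 females, untreated and pooled). Neurog3-Cre is active in the progenitors of enteroendocrine cells (EECs), so that the reporter stays on in every descendant of a labeled cell, and the library also held goblet, Paneth, tuft and enterocyte cells. The comparison asks how EC cells with much Sct differ from EC cells with little. With 1 library there was no replicate and no test was made, the members share their animals, and the 95% intervals (Poisson for sums of UMIs, Clopper-Pearson for shares) cover counting error and not differences between mice or handling. The bulk libraries of the series were not used here.

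EC cells are the EECs that make and release serotonin. Tryptophan hydroxylase 1 (Tph1) makes its precursor with tetrahydrobiopterin as cofactor, Ddc completes the synthesis and Slc18a1 loads the product into secretory granules, where chromogranins are packed as well. Secretin, first known as the hormone by which the duodenum calls for pancreatic bicarbonate, is now known to be made by several kinds of EEC and to increase in EC cells as they leave the crypt for the villus. Foxq1 is a forkhead transcription factor, Ly6a (Sca-1) a small protein anchored in the cell surface, Necab2 a neuronal calcium-binding protein and Pyy the gene for peptide YY, a hormone that curbs appetite and gut movement.

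Members held 2210 to 7957 UMIs each, with a median of 3631.5 and a median of 1318.5 genes. In other EC cells the medians were 2824 UMIs and 1322.5 genes. The difference in UMIs was that of Sct, since the median of the UMIs other than Sct was 2636.5 in members and 2718 in other EC cells. The median share of mitochondrial UMIs was 1.62% in members and 2.38% in other EC cells. For this reason levels of all genes but Sct are given per 10000 UMIs other than Sct. The profile of free RNA, pooled from barcodes with 1 to 100 UMIs, served as the background.

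The values that chose the members are given as a description. Sct ran from 1513 to 5379 UMIs per 10000 in members, with a median of 2448, and from 8.74 to 1498 in other EC cells, with a median of 314. Pooled over cells, Sct was 2596 per 10000 in members, 375.7 in other EC cells and 171 in free RNA, so that about 1 UMI in 4 of a member was a secretin transcript. The limit of 1500 cut through a tail and not through a gap: 16 cells lay within 100 above it and 10 cells within 100 below it. Median Tph1 was alike on the scale of all UMIs, 47.0 in members and 46.6 in other EC cells, while on UMIs other than Sct the pooled level was 73.0 (70.9 to 75.1) against 51.0 (50.3 to 51.7). Medians of Tac1 were 0 in both groups, and those of Cck were 13.4 and 13.5, against 1672 in the 336 Sct-high cells without Tph1 that serve as a comparison below.

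The EC label was checked against markers of EC cells. All 8 EC markers listed, Tph1 and Tac1 of the gate among them, passed the filter on low levels described below. Of these, 2, Tac1 and Chga, were at least 2-fold lower in members than in other EC cells, beside 2.6% of all genes compared. None was 2-fold higher. Slc18a1, the vesicle transporter for serotonin, was at 4.01 (3.53 to 4.54) in members and 4.16 (3.97 to 4.35) in other EC cells, and at 1.07 in Sct-high cells without Tph1. Lmx1a, a transcription factor of the EC lineage, was at 1.83 in members, 2.19 in other EC cells and 0.0564 in Sct-high cells without Tph1. Fev, another factor of EECs that make serotonin, was at 0.995 and 0.996 in members and other EC cells. Ddc was at 3.33 (2.89 to 3.82) and 3.72 (3.54 to 3.90), and Chga, at 69.3 and 145.7, was at 12.7 in Sct-high cells without Tph1.

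Marker sums of other cell types were as follows, and their part in the results below was not tested. The 8 goblet markers summed to 426 UMIs per 10000 in members, 382 in other EC cells and 2279 in free RNA, with a range over member cells of 256 to 1293. Enterocyte markers (8 genes) summed to 26.4, 67.2 and 91.2, with a range of 0 to 216 over member cells and 0 to 1129 over other EC cells. Paneth markers (5 genes) summed to 52.0, 79.8 and 358, and hormones of other EECs (7 genes) to 60.3, 66.1 and 262. The tuft sum was 0.196 in members, with Dclk1 at 0, and 2.32 in other EC cells. The crypt sum was 0.326 in members and 0.656 in other EC cells, and the immune sum was 0.864 and 2.86. Apart from the goblet sum, each of these pooled sums was lower in members than in other EC cells. The medians over cells ran the other way for Paneth markers, at 50.7 in members and 40.3 in other EC cells, where the highest cell had 3558, and for other hormones, at 45.5 and 35.98, where the highest had 2925. Each sum was lower in members than in free RNA.

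Across all genes, 2889 had a mean of the group levels of at least 0.5 and a level that could be compared. Of these, 63 were at least 2-fold higher in members (2.18% of the genes compared) and 75 at least 2-fold lower (2.6%), 4.78% in all, and the median log2 fold change of all genes was 0.08. Since Sct took so large a part of each member's UMIs, the split depended on the scale. Per 10000 UMIs with Sct included, the median moved to -0.30, and 25 genes were at least 2-fold higher and 147 lower (14.5% of the called genes higher, against 45.7% on the main scale). All 25 were among the 63, and 70 of the 75 lower genes were among the 147. The 20 genes named below as highest were past 2-fold on both scales.

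**Figure D1:**
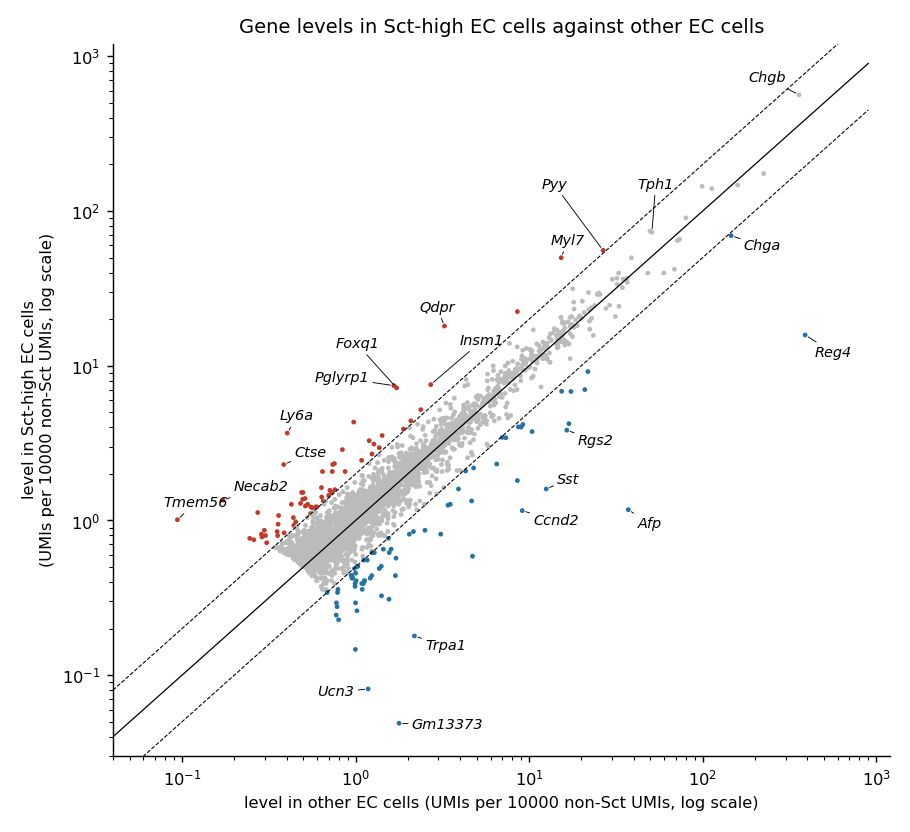
Each point is 1 of the 2889 genes compared, with its level in other EC cells on the x axis and in Sct-high EC cells on the y axis, both in UMIs per 10000 UMIs other than Sct and on log scales. The solid line marks equal levels and the dashed lines 2-fold, red points (63) are at least 2-fold higher and blue points (75) at least 2-fold lower in Sct-high EC cells, and Reg4, Afp, Trpa1, Ucn3 and Gm13373 lie farthest below the line.

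Among the listed markers, Ly6a, Necab2 and Foxq1 were the clearest. Ly6a (ENSMUSG00000075602, mm10 chr15:74994877-74998031, minus strand) was at 3.67 (3.21 to 4.18) in members and 0.404 (0.346 to 0.468) in other EC cells, 9.09-fold higher. A Ly6a UMI was present in 34.7% of members, 7.40% of other EC cells, 21.1% of Tac1-high EC cells (123 cells of the same gate with Tac1 of at least 30, at a level of 0.739) and 2.08% of Sct-high cells without Tph1. Median depths of the last 2 classes were 3267 and 5937 UMIs. After every cell was thinned to 2000 UMIs, the shares were 25.7, 5.17, 13.1 and 1.19%, with 56 shallower other EC cells and 1 Tac1-high EC cell left out. Its member values ran from 0 to 77.3, and 1 cell held 11.1% of the Ly6a UMIs of all members. Of the 11 genes of the Ly6 family listed, Ly6a and Lypd8 passed the filter, and Lypd8 was at 11.6 and 9.08, within 2-fold.

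Foxq1 (mm10 chr13:31556134-31560976, plus strand) was at 7.19 (6.54 to 7.89) in members against 1.72 (1.60 to 1.85), 4.17-fold higher, with a UMI in 76.6% and 32.8% of cells. In Sct-high cells without Tph1 it was at 0.0814, and in free RNA at 0.638. Necab2 (mm10 chr8:119446719-119472640, plus strand) was at 1.35 (1.08 to 1.68) against 0.172 (0.135 to 0.216), 7.87-fold higher, with a UMI in 27.9% and 4.31% of cells. No Necab2 UMI was found in the 123 Tac1-high EC cells. Foxq1 was at 0.370 in those cells, and Necab2 at 0.0814 in Sct-high cells without Tph1, beside 0.0355 in free RNA. In EC cells with Sct of 1000 to 1500, just under the limit, Necab2 was at 0.847 and Foxq1 at 3.74, above free RNA. Of the 12 Necab and calcium buffer genes listed, 8 passed the filter and Necab2 alone was past 2-fold, beside 4.78% of all genes compared.

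Serotonin synthesis showed 1 gene far above the rest. Qdpr (mm10 chr5:45434021-45450236, minus strand) encodes dihydropteridine reductase, which regenerates the tetrahydrobiopterin that tryptophan hydroxylase uses. It was at 18.1 (17.0 to 19.1) in members and 3.25 (3.08 to 3.43) in other EC cells, 5.55-fold higher, and it was found in 98.2% of members against 54.9% of other EC cells. Member cells ran from 0 to 44.6 with a median of 16.9, against a median of 2.46 in other EC cells. Tac1-high EC cells had 4.65 and Sct-high cells without Tph1 2.30. The other serotonin genes did not share this difference: Gch1 and Pts, which make tetrahydrobiopterin, were at 3.47 and 0.473 in members and at 3.21 and 0.597 in other EC cells. Pcbd1, which works in the same recycling as Qdpr, was at 3.75 (3.28 to 4.27) and 2.80 (2.64 to 2.96), and Ddc at 3.33 and 3.72. Of the 12 genes of the list 8 passed the filter, and Qdpr alone was past 2-fold higher, beside 2.18% of all genes compared. None was past 2-fold lower. The median log2 fold change of the 8 was 0.03, beside 0.08 over all genes.

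The promoters of Sct, Qdpr and Necab2 are shown because Sct defines the cells and the others were among the genes that went with it. The sequences are RefSeq's for GRCm38.p6, 5′ to 3′ on the strand of the gene, from 250 bases before the start of the gene to 50 after it. Capitals mark matches, on either strand, to the forkhead core TGTTTA, the E-box CANNTG, bound by basic helix-loop-helix factors such as Neurod1, and the GC box GGGCGG. A capital run may join overlapping motifs.
Sct (chr7:141279084-141279383, minus strand): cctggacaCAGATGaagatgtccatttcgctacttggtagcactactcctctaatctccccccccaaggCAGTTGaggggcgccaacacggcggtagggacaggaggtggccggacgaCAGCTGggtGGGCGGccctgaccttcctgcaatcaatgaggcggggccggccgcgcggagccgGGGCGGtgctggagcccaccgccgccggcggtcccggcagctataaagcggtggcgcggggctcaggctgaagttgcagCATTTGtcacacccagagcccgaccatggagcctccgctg
Qdpr (chr5:45450180-45450479, minus strand): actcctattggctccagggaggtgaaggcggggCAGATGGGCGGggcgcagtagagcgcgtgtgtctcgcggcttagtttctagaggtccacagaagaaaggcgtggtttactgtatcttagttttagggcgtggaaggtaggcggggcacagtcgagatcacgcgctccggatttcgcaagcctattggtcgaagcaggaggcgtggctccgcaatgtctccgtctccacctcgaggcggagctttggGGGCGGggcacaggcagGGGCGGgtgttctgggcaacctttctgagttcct
Necab2 (chr8:119446469-119446768, plus strand): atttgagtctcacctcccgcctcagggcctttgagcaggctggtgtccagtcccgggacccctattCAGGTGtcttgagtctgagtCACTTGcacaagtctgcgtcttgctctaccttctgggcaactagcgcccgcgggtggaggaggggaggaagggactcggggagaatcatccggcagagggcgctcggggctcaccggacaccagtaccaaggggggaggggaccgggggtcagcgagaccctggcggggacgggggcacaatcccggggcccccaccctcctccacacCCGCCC
The Sct promoter held 4 E-boxes and 2 GC boxes, that of Qdpr 1 and 3, and that of Necab2 2 and 1, and these windows had no TGTTTA. Over all 32851 promoters of the same length, 13.4% held TGTTTA, 72.3% an E-box and 35.7% a GC box. Of the 20 highest genes named below, 15 were matched in the table, and 1, 13 and 11 of these held the respective motifs. These are matches of letters and not sites known to be used.

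The 20 genes with the largest fold were, in order, Tmem56, Ly6a, Necab2, Ctse, Qdpr, Pglyrp1, Fabp5, Foxq1, Slc39a8, Txndc5, Myl7, Prrx2, Tekt4, D930028M14Rik, Shf, Tspan7, Ell2, Celf2, Cep290 and Itgb7, from 10.8-fold down to 2.90-fold. Tmem56, a membrane protein, was at 1.01 (0.775 to 1.30) against 0.0941 (0.0675 to 0.128). Ctse encodes cathepsin E, an aspartic protease of the endosome, and was at 2.30 (1.93 to 2.71) against 0.385 (0.329 to 0.448). Myl7, a myosin light chain best known from the atrium of the heart, was the most abundant of the 20 at 49.9 (48.1 to 51.7) against 15.3 (14.9 to 15.7), and every member held a Myl7 UMI. Slc39a8, which carries zinc and manganese into cells, was at 1.12 (0.875 to 1.42) against 0.273. Fabp5, a fatty-acid-binding protein, was at 4.32 (3.82 to 4.87) against 0.975.

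Some of the 20 have a sizable background. Pglyrp1, a secreted protein that binds bacterial peptidoglycan, was at 7.44 in members, 1.66 in other EC cells and 4.26 in free RNA. Txndc5, a disulfide isomerase of the endoplasmic reticulum (ER), was at 2.87, 0.840 and 2.22. The other 18 were at most 1.41 in free RNA, except Myl7 at 5.85. Of the 20 genes, 19 stayed past 2-fold in every one of 13 alternative settings of the gate, filter, scale and comparison, and all 20 kept their direction. The exception was Itgb7, an integrin chain, at 1.39-fold when other EC cells with Reg4 of at least 100 were left out of the comparison.

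**Figure D2:**
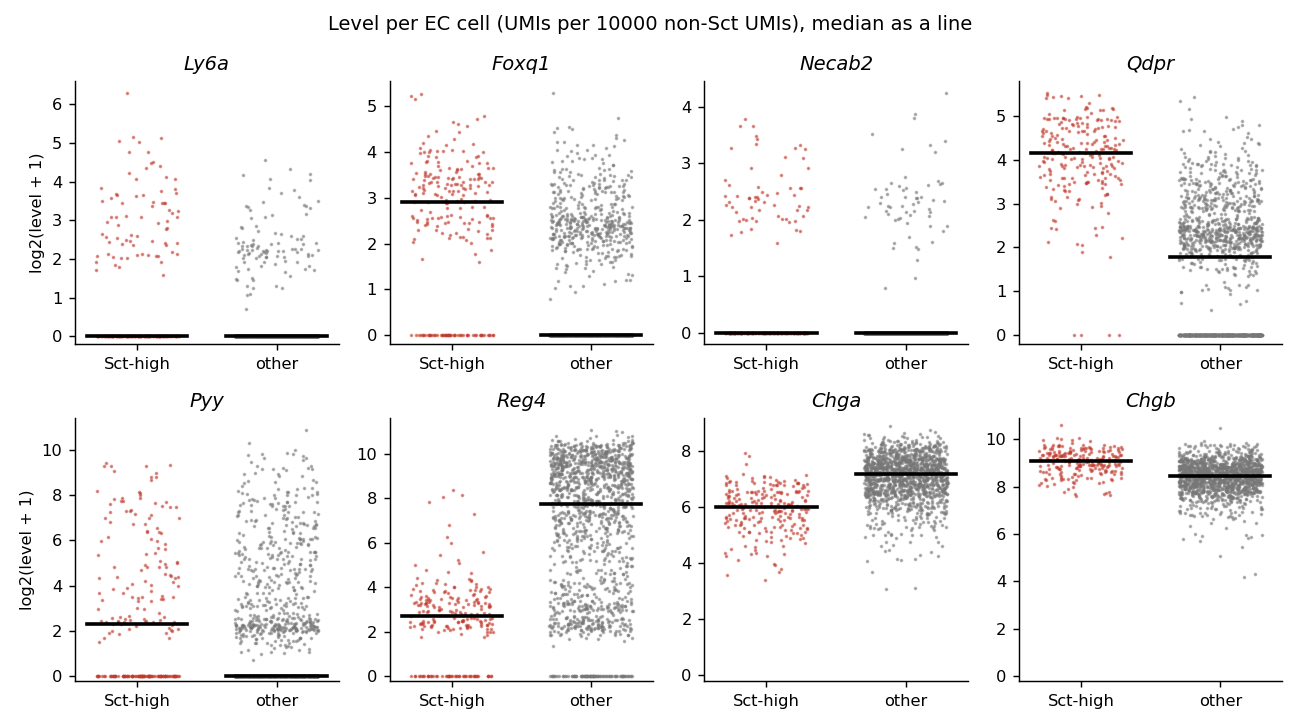
Level per cell of 8 genes, in log2 of UMIs per 10000 UMIs other than Sct plus 1, for the 222 Sct-high and the 1392 other EC cells, each point 1 cell, spread at random along the x axis, and the black line the median. Qdpr, Foxq1 and Chgb are shifted upward in Sct-high cells and Chga downward, Reg4 is spread over the whole scale in other EC cells with a median of 214, and the medians of Ly6a and Necab2 are 0 in both groups.

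Of 30 transcription factors listed, 14 passed the filter, 3 were at least 2-fold higher, beside 2.18% of all genes compared, and none was 2-fold lower. The other 11 were within 2-fold. Besides Foxq1 these were Insm1, a zinc-finger repressor needed for EEC formation, at 7.55 (6.88 to 8.27) against 2.71 (2.56 to 2.87), and Onecut3, at 1.39 (1.11 to 1.71) against 0.512 (0.447 to 0.583). Insm1 was 2.79-fold and Onecut3 2.71-fold higher, and the latter was at 1.40 in Sct-high cells without Tph1 as well, where Insm1 was at 1.59. Onecut3 was 1.99-fold higher when Reg4-high EC cells were left out of the comparison. Neurod1, the general EEC factor, was at 13.2 and 14.7, Sox4 at 5.74 and 7.47, and Foxa1 at 2.80 and 2.63. Klf4 was at 2.89 and 3.66, and Cdx2, which sets intestinal identity, at 1.24 and 1.43.

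The granins went in opposite directions. Chga, chromogranin A (mm10 chr12:102554969-102565028, plus strand), was at 69.3 (67.3 to 71.4) in members and 145.7 (144.6 to 146.8) in other EC cells, and it was found in every cell of both groups. Chgb, chromogranin B (mm10 chr2:132781278-132795079, plus strand), was at 563 (557 to 569) and 359 (357 to 361). Their folds were 0.476 and 1.57. On the scale with Sct included they were 0.366 and 1.21, so that neither direction turned. The difference in Chga was past 2-fold in 8 of 13 alternative settings. It was 0.503-fold with Tac1 under 10, 0.516-fold at an Sct limit of 1000, 0.577-fold over the UMI limit of Cell Ranger 2, 0.585-fold with more than 1500 genes and 0.673-fold when Reg4-high EC cells were left out. Per cell, the median of Chga was 62.5 in members and 144 in other EC cells.

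Of the 15 granin and prohormone processing genes, 12 passed the filter, none was 2-fold higher and Chga and Resp18 were 2-fold lower, beside 2.6% of all genes, with a median log2 fold change of -0.29. Resp18, a protein of secretory granules, was at 4.03 (3.54 to 4.56) against 8.67 (8.40 to 8.96), a fold of 0.464 that was past 2-fold in 9 of 13 settings and 0.715 at most, with more than 1500 genes. Scg3, which binds chromogranin A in the granule, was at 1.63 (1.33 to 1.98) against 3.21 (3.05 to 3.38), a fold of 0.508. Pcsk1, the convertase that cuts many prohormones, was at 6.28 (5.67 to 6.94) against 4.95 (4.75 to 5.17), and its inhibitor Pcsk1n at 7.29 against 11.7, a fold of 0.622. Exocytosis genes showed no such difference: of 20 genes, 9 passed, none was past 2-fold either way, and the median was 0.22. Snap25, a fusion protein of the plasma membrane, was at 4.42 and 5.69, and Rab3d, a Rab protein of secretory granules, at 1.81 (1.49 to 2.18) and 1.12 (1.02 to 1.22).

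The ER folding genes were a little higher as a group. All 20 passed the filter, 19 were above 1-fold, and the median log2 fold change was 0.51 beside 0.08 over all genes, or 0.13 beside -0.30 on the scale with Sct included. Dnajb9 was the 1 gene past 2-fold, at 1.22 (0.962 to 1.53) against 0.553 (0.485 to 0.627), a fold of 2.21 that was 1.70 on the scale with Sct included, where none of the 20 was past 2-fold, and 1.79 at an Sct limit of 1000. Hspa5 (BiP), the main chaperone of the ER, was at 13.9 (13.0 to 14.9) against 7.71 (7.45 to 7.98), Ssr4, part of the translocon complex, at 8.15 (7.45 to 8.90) against 4.33 (4.14 to 4.53), and Sec61b, a subunit of the translocon itself, at 7.55 (6.88 to 8.27) against 4.43 (4.23 to 4.63). Pdia3, a disulfide isomerase, was the exception at 4.32 and 4.37. For scale, 60.9% of all genes compared were above 1-fold, and 19 of these 20 are 95%.

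Hormone genes other than Sct were mostly low. Of the 17 other peptide hormones listed, 9 passed the filter. Of these, Pyy, a marker listed with earlier results of these data known, was at least 2-fold higher, beside 2.18% of all genes compared. Another 4 were at least 2-fold lower, beside 2.6%. The lower ones were Ucn3 (urocortin 3) at 0.0815 against 1.18, Sst (somatostatin) at 1.60 against 12.5, Cartpt at 9.16 (8.42 to 9.95) against 21.8 (21.4 to 22.2), and Tac1, which the gate limits, at 1.27 against 3.51. Cartpt was past 2-fold in 10 of 13 settings, with 0.712-fold at more than 1500 genes, and Tac1 in 11. Sst was at 9.37 in free RNA, above its level in members. Cck at 20.5, Ghrl at 20.2 and Gip in members were each below free RNA, at 113 and 61.8 for the first pair and 68.8 for Gip. A single member held 39.9% of the Ghrl UMIs of all members, and another 21.4% of the Gip UMIs. Gcg, the gene for glucagon-like peptide 1, was at 0.310 in members against 1.83 in free RNA, and Iapp and Insl5 were among the 4 hormones with no UMI in any member.

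Pyy was unevenly spread among the members. Pooled, it was at 55.7 (53.8 to 57.6) against 26.7 (26.2 to 27.2) in other EC cells, 2.09-fold higher, but this was past 2-fold in 7 of 13 alternative settings. It was 1.61-fold on the scale with Sct included, 1.64-fold without Reg4-high EC cells, 1.85-fold with cells of more than 500 genes, 1.87-fold as a mean over cells, 1.91-fold with Tac1 under 10 and 1.99-fold at an Sct limit of 2000, and at most 3.52-fold, against cells with Sct under 500. A Pyy UMI was present in 127 of the 222 members (57.2%, 50.4 to 63.8%). In 47 members (21.2% of the group) Pyy was at least 50 per 10000, with a median of 176 and a highest value of 680, and these cells held 91.5% of all Pyy UMIs of the group. The same limit was passed by 10.5% (8.93 to 12.2%) of other EC cells, 0.813% of Tac1-high EC cells and 18.8% of Sct-high cells without Tph1. Pooled levels of other genes were also taken in these 47 members and in the members with less Pyy. Foxq1 was at 7.29 (5.90 to 8.90) in the 47 cells and 7.16 (6.43 to 7.96) in the rest, Ly6a at 3.57 and 3.70, Qdpr at 17.1 and 18.3, and Chga at 69.4 and 69.3. Reg4 was at 9.64 (8.04 to 11.5) in the 47 cells and 17.5 (16.3 to 18.7) in the others, Myl7 at 44.7 (41.2 to 48.5) and 51.3 (49.3 to 53.4), and Chgb at 591 (578 to 605) and 555 (548 to 562).

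Spread over members was also taken for all genes with enough counts. For 1588 genes with at least 60 UMIs in members, the median ratio of the variance over cells to that of Poisson counting was 1.06. With so few UMIs counting noise can hide differences between cells, so that a ratio near 1 does not show the members to be alike. There were 71 genes over 2. Ly6a was at 5.21, with 62.2% of its UMIs in the 22 members with most. Ghrl (138), Pyy (79.1), Gip (36.7) and Reg4 (35.4) led, followed by Chgb (19.2), Malat1 (18.1) and Cartpt (16.1). The 22 members with most Cartpt held 68.9% of its UMIs, and Cartpt, the precursor of the CART peptides, was found in 43.2% of members against 79.3% of other EC cells.

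The 15 genes with the smallest fold were Gm13373, Afp, Reg4, Ucn3, Trpa1, Gm42637, Ccnd2, Sst, Slc5a4b, Cyp2c65, Apoc3, Rgs2, Fabp1, Ptgr1 and Akr1b7, from 36.4-fold to 3.85-fold lower in members. Reg4, a secreted lectin, was at 15.8 (14.8 to 16.8) in members, 389 (387 to 391) in other EC cells and 37.4 in free RNA. Afp, alpha-fetoprotein, was at 1.17 (0.919 to 1.48) against 37.3 (36.7 to 37.8), and at 3.02 in free RNA. Both were thus lower in members than in free RNA. Trpa1, an ion channel opened by irritants, by which EC cells sense them, was at 0.179 (0.0895 to 0.321) against 2.18 (2.05 to 2.32), with a UMI in 4.95% of members, 36.4% of other EC cells and 9.23% of Sct-high cells without Tph1. Ccnd2, cyclin D2, was at 1.16 (0.904 to 1.46) against 9.12 (8.84 to 9.41), and Rgs2, a brake on G-protein signaling, at 3.83 (3.36 to 4.35) against 16.5 (16.1 to 16.9). Gm13373, a predicted gene, was at 0.0489 (3 UMIs) against 1.78.

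Reg4 divided the other EC cells, and several of the low genes moved with it. Reg4 was at least 100 per 10000 in 849 of the 1392 other EC cells (61.0%, 58.4 to 63.6%), in 92 of the 123 Tac1-high EC cells (74.8%) and in 6 of the 222 members (2.70%, 0.998 to 5.79%). Against the 543 other EC cells with Reg4 under 100, a comparison chosen after the data were seen, Afp was at 0.987-fold, Apoc3 at 0.572-fold and Ptgr1 at 1.17-fold, so that the difference of these genes from members was within 2-fold or turned. Other differences were smaller than in the main comparison but still past 2-fold, with Trpa1 at 0.272-fold (0.0822 in the main comparison), Ccnd2 at 0.240-fold (0.127) and Rgs2 at 0.318-fold (0.232). Gm13373 was at 0.0675-fold and Gm42637 at 0.0975-fold. Ly6a became 19.5-fold higher and Foxq1 3.26-fold. Under this comparison 50 genes were at least 2-fold higher and 72 lower, and 36 and 41 of these were shared with the main lists. Of the 13 genes listed as marking subsets of EC cells, 10 passed the filter. Of these, 8 were at least 2-fold lower in members, beside 2.6% of all genes compared. The list was chosen with earlier results of these data known, and it holds Tac1, which the gate limits. Its genes Afp, Reg4, Trpa1 and Rgs2 are also among the 15 lowest, so that the count is not a separate result. The Serpina1 genes of the list are near-identical copies whose reads can be split between them, so that their single values are uncertain.

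Within the EC gate many of these genes differed between classes of Sct on both sides of the limit. In 7 classes of cells with Sct of 0 to 250 (488 cells), 250 to 500 (592), 500 to 1000 (242), 1000 to 1500 (70), 1500 to 2000 (59), 2000 to 3000 (107) and 3000 and over (56), Qdpr was at 2.26, 2.80, 5.13, 9.17, 13.1, 19.0 and 21.8. Foxq1 was at 0.868, 1.84, 2.99, 3.74, 5.69, 7.25 and 8.76. Both were thus higher at every step, as were 8 of the 20 highest genes, and 17 of the 20 were highest in the top class. The genes named were picked with the Sct limit within this range, so that a higher level in the upper 3 classes is built in, and the order inside the members and inside the other cells is what the classes add. All 20 were higher at Sct of 1000 to 1500 than at 250 to 500, and 18 of 20 were higher at 3000 and over than at 1500 to 2000. The same counts were not taken over all genes, so that no share stands beside them. Reg4 was at least 100 in 65.7% of cells at Sct of 250 to 500 and in 5.71% at 1000 to 1500. The part of this difference in the counts was not tested.

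Ly6a was late in this order. It was at 0.371, 0.310, 0.659 and 0.598 in the lower 4 classes and at 1.14, 3.39 and 7.07 in the upper 3, so that most of its difference lay inside the members. Chga was lower with each class, from 157 to 51.7, and Chgb higher with each class, from 332 to 598. Reg4 was at 520, 385, 172, 41.2, 18.2, 18.7 and 7.34, and the share of cells with Reg4 of at least 100 was 75.2, 65.7, 36.8, 5.71, 5.08, 2.80 and 0%. The last was of 56 cells, with an upper 95% bound of 6.375%. Most of the difference in Reg4 therefore lay below the limit of 1500. Pyy took another course, with 12.4, 19.3, 59.1, 100, 57.0, 59.4 and 46.7, highest at Sct of 1000 to 1500, and the share of cells with Pyy of at least 50 was 4.71 and 8.95% in the lowest 2 classes and between 19.6 and 23.7% in the other 5. Ccnd2 was at 9.84 and 10.8 in the lowest 2 classes and at 0.135 in the top class. Of the 15 lowest genes, 2 were lower at every step and 10 were lowest in the top class, counts that were not taken over all genes either. Just inside and just outside the limit, in 16 and 10 cells, Qdpr was at 12.5 and 8.38. Foxq1 was at 8.21 and 2.89, and Chga at 80.4 and 94.4. The Foxq1 level just inside was above that of its own class, 5.69, and of the next class up, 7.25. With so few cells these values cannot show a step in Foxq1 at the limit, and such a step was not tested.

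**Figure D3:**
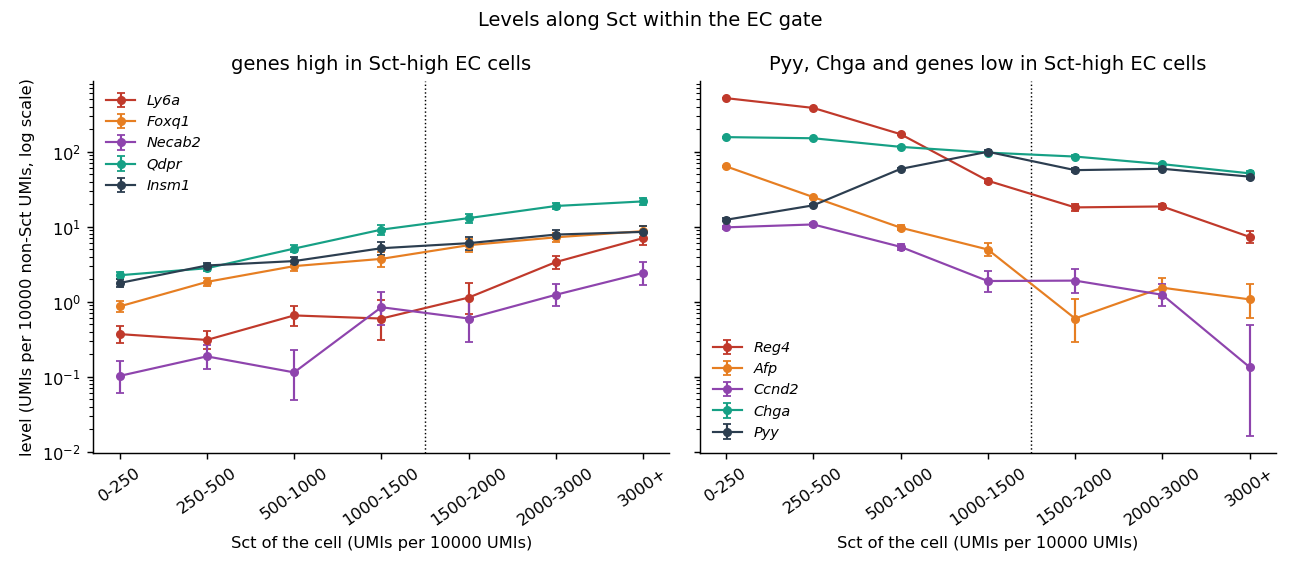
Pooled level of 10 genes (y axis, UMIs per 10000 UMIs other than Sct, log scale) in 7 classes of EC-gate cells by their Sct (x axis, UMIs per 10000 UMIs), with Poisson 95% intervals and a dotted line at the limit of 1500. Qdpr, Foxq1 and Insm1 are higher in each class than in the one before, Ly6a is higher mainly above the limit, Reg4 and Chga are lower toward high Sct, and Pyy is highest at 1000 to 1500.

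Cells were also placed by the genes outside the gate, from the 500 most variable of them and 20 components, and the 15 closest cells of each were listed. A median of 80% of the neighbors of a member were members, against 13.8% of the cells in the gate. The median was 0% for other EC cells and 33.3% for the 70 cells with Sct of 1000 to 1500. Among all cells of the gate, members therefore lay together on genes that had no part in the rule, although other genes that vary with Sct place them. Cells near the limit lay between. Reg4 was at least 100 in 61.0% of other EC cells and in 2.70% of members. Neighbors were not taken among other EC cells with Reg4 under 100 alone. The values thus cannot show whether members lie apart from those cells.

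The 20 highest and 15 lowest genes were picked from these same members. Their direction against further classes is thus in part built in, and the shares over all genes were not taken for these classes. Against the 336 Sct-high cells without Tph1, most of which carry much Cck, 15 of the 20 were at least 2-fold higher in members. None was 2-fold lower. The 5 within 2-fold were Fabp5, Slc39a8, Myl7, D930028M14Rik and Ell2, and Myl7 was at 49.9 in members and 51.9 in those cells. Qdpr, Foxq1, Ly6a, Necab2, Ctse and Tmem56 were among the 15 higher in members than in those cells, while Myl7 was high with Sct in either class. Compared with the 123 Tac1-high EC cells, 19 of the 20 were at least 2-fold higher, all but Celf2, an RNA-binding protein, at 1.08 against 0.670. Of the 15 lowest genes, 12 were at least 2-fold lower in members than in Tac1-high EC cells. In these Chgb was at 644, Chga at 209 and Reg4 at 537, so that Tac1-high EC cells shared the high Chgb of the members and not their low Chga.

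**Figure D4:**
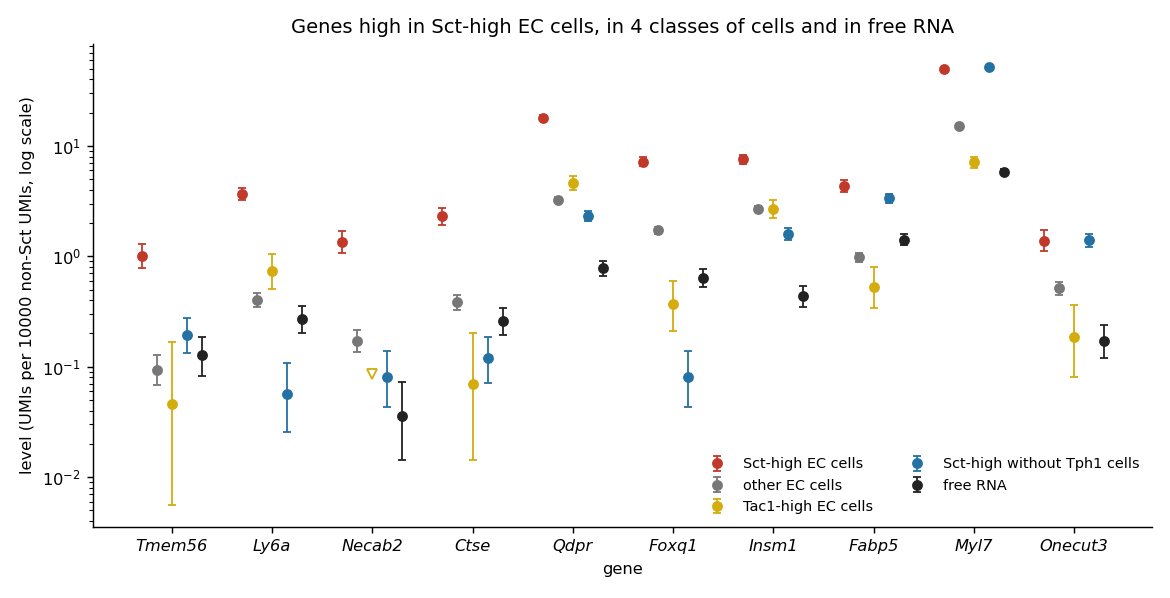
Pooled level of 10 genes (y axis, UMIs per 10000 UMIs other than Sct, log scale) in Sct-high EC cells, other EC cells, Tac1-high EC cells, Sct-high cells without Tph1 and free RNA, with Poisson 95% intervals and an open triangle at the upper 95% bound where no UMI was found. Fabp5, Myl7 and Onecut3 are as high or nearly as high in Sct-high cells without Tph1 as in Sct-high EC cells, whereas Ly6a, Necab2 and Foxq1 are not.

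Few sensors and channels were above the filter. Of 24 chemosensory genes listed 4 passed it, and Trpa1 was the 1 past 2-fold, in the lower direction, beside 4.78% of all genes. Ffar2, a receptor for short-chain fatty acids, was at 4.14 (3.65 to 4.68) against 3.31 (3.14 to 3.49), and Trpm2, a channel opened by oxidative stress, at 1.99 (1.65 to 2.38) against 2.31 (2.17 to 2.46). Sstr2, a receptor for somatostatin, was under the filter but 9.18-fold apart, at 0.505 (0.343 to 0.718) against 0.0551 (0.0353 to 0.0819), from 31 and 24 UMIs, with a UMI in 12.6% of members, 1.65% of other EC cells and 7.74% of the deeper Sct-high cells without Tph1. Of 20 ion channel genes 6 passed and none was past 2-fold, a count too small to set apart from the share over all genes. Cacna1a, a voltage-gated calcium channel, was at 2.30 and 1.72.

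Listed genes of the BMP pathway, which is active toward the villus tip, were few above the filter. Of 16 genes 5 passed it and none was past 2-fold, beside 4.78% of all genes, a count too small to set apart from that share. Its target genes Id1, at 11.6 (10.8 to 12.5) against 11.9 (11.6 to 12.2), Id2, at 4.66 against 5.08, and Id3, at 11.5 against 10.9, lay within 10% of 1-fold. Of 10 genes that mark enterocytes at the villus tip, 7 passed, with a median log2 fold change of -0.42 beside 0.08 over all genes. Of these, 1, the peptide transporter Slc15a1, was at least 2-fold lower, at 0.294 against 1.00, beside 2.6% of all genes. The sum of enterocyte markers was lower in members as well, and its part in these values was not tested. Of 15 genes of gut region none passed the filter, and 11 had no UMI in members.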

How the data were processed

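Cell Ranger 2.0.1 was run by the authors with default settings on mm10, and the deposited values are counts of UMIs per gene and barcode for all 475960 barcodes with a UMI (108489965 UMIs), not normalized. Barcodes with more than 1000 genes and under 10% mitochondrial UMIs were kept, the limits of the study's methods: 10381 passed the first and 9451 both, with a median of 5984 UMIs. Here these limits were applied to all barcodes, and the study reports fewer cells under them. Of the 222 members, 87 were over the UMI limit of Cell Ranger 2 as rebuilt here. The others may not be among the study's cells. The authors' cell calls and the bulk libraries of the series were not used here.

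Cells were gated by the levels given above. UMIs were summed over the cells of a class and divided by the sum of UMIs other than Sct, per 10000. A gene was compared where the mean of the group levels was at least 0.5, and called at a 2-fold difference, a rule of size and not a test. A fold was computed against at least 3 counts. Members and gene lists were chosen with earlier results of these data known. The genes named are the listed markers, the 20 with the largest and 15 with the smallest fold among genes found in at least 10% of cells of the higher group, and members of the lists; genes named for their spread over cells were chosen after their values were seen. Doublets were scored with Scrublet, whose automatic threshold of 0.6216 called 0 cells. The 715 highest scores (7.57% of cells, from a rate of 0.8% per 1000 cells) held 3 members (1.35%) and 49 other EC cells (3.52%) and were left out as an alternative. Gene positions are those of GENCODE vM21 for mm10. The tools were scanpy 1.11.5, pandas 2.3.3, numpy 2.4.6 and scipy 1.17.1 under Python 3.11.15, with scikit-learn 1.9.0 for the neighbors, and the folds were tested on simulated counts.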

Additional observations from a re-analysis of the deposited data

How the results depend on the processing

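The number of Sct-high EC cells was 60 when more than 1500 genes were required and 87 among barcodes over the UMI limit by which Cell Ranger 2 calls cells (3892), and 163 to 292 under the other settings of the gate. That limit, on UMIs with Sct included, was passed by 39.2% (32.7 to 45.9%) of members and 16.7% (14.8 to 18.8%) of other EC cells. Members are thus a larger share of the gate among barcodes over it than the 13.8% given above. Genes at least 2-fold higher and lower numbered 120 and 129 with more than 1500 genes, 138 and 144 over that UMI limit, 25 and 147 with all UMIs as the total, 16 and 26 at a mean level of at least 2, and 846 and 984 with no filter on low levels, where more genes with few counts enter. Fewer cells entered in the first 2 of these settings, and the cause of the larger numbers was not tested. The remaining settings gave 50 to 78 higher and 65 to 92 lower genes. Of the 20 highest genes 19, all but Itgb7, were past 2-fold in each of 13 settings, and of the 15 lowest 11 were. The exceptions were Afp, Reg4 (0.749-fold), Apoc3 and Ptgr1, all against the other EC cells with Reg4 under 100. That comparison was chosen after seeing the data, and in it Ptgr1 turned to 1.166-fold. Its value for Reg4 itself follows from the selection, since cells with much Reg4 were left out of the comparison cells and kept in members. Pyy was past 2-fold in 7 of the 13 settings, Chga in 8, Resp18 in 9, Cartpt in 10 and Dnajb9 in 11. No paired analysis was possible because the comparison lies within 1 library with no replicates. Depth limits what single cells show: a gene at 1 UMI per 10000 is missed in most cells of this depth, while free RNA adds UMIs to cells that lack a gene.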

Other observations

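Immediate early genes, which mark recent stimulation and also the stress of dissociation, were within 2-fold where they could be compared. Of 14 genes 11 passed the filter and none was past 2-fold, beside 4.78% of all genes. So small a count cannot be set apart from that share. Fos was at 17.8 in Sct-high EC cells and 17.3 in other EC cells, Jun at 16.3 (15.3 to 17.3) and 13.8 (13.4 to 14.1), and Egr1 at 8.92 and 7.27. Interferon and MHC class I genes had a median log2 fold change of -0.36 over the 7 of 16 that passed. None was past 2-fold, a count again too small to set apart from the share over all genes. H2-D1 was at 3.95 (3.46 to 4.48) against 5.06 (4.85 to 5.27) and B2m, the light chain of MHC class I, at 2.89 against 3.71, both lower than in free RNA, at 6.41 and 7.40. Ribosomal protein genes had a median of 0.09, next to 0.08 over all genes. Of 84 genes 80 passed and none was past 2-fold, beside 4.78% of all genes.

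Clps, colipase, a cofactor of pancreatic lipase, was at 22.4 in Sct-high EC cells and 8.56 in other EC cells, 2.62-fold higher, and was chosen after its values were seen. Rab27a, a Rab protein that docks secretory granules, was under the filter at 0.571 (0.397 to 0.794) against 0.163 (0.127 to 0.206) in other EC cells, from 35 and 71 UMIs, and at 0.851 in free RNA. Both mouse sexes contributed members: Xist was found in 43 of the 222 cells (19.4%) and a Y-linked UMI in 38 (17.1%), against 28.2 and 19.4% of other EC cells, and both together in 3 members (1.35%) and 2.95% of other EC cells.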
